A study of Homo sapiens with 18 samples.

Results

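The 10 genes described here are DUSP1, DUSP2, DUSP4, DUSP5, DUSP6, ZFP36, ZFP36L1, ZFP36L2, SPRY2 and SPRY4, which encode phosphatases and other proteins that restrain MAP kinase signalling or destabilise AU-rich mRNAs. They were chosen by gene symbol from the 44016 features of a poly(A) mRNA count table, and each of the 10 symbols matched 1 feature. A filter on low counts kept 22382 genes and 9 of the 10 members. DUSP2 failed it with 0 to 0.221 CPM (TMM-scaled counts relative to library size) per library, and only its levels are given.

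All cells were A549, an established human lung adenocarcinoma line, in 6 groups of 3 libraries that the design calls biological replicates. The groups were a stable S100A16 knockdown (KD) given 100 µM hydrogen peroxide (H2O2) for 2 h, the same KD untreated, a stable hnRNPM KD untreated, a stable MagoHB KD untreated, wild type (WT) given 100 µM H2O2 for 2 h, and WT untreated. S100A16 is a calcium-binding protein, hnRNPM is a splicing regulator that binds RNA in the nucleus, and MagoHB belongs to the exon junction complex that marks spliced mRNA. The controls were WT cells, no line with an empty vector is among the groups, and the sources used here give neither the knockdown method nor the number of clones. P-values measure the spread between these libraries.

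Growth factors and stress switch on MAP kinase cascades that end in ERK, JNK and p38, and the same cascades induce their own brakes as early genes. DUSP proteins remove phosphates from MAP kinases. DUSP1, DUSP2, DUSP4 and DUSP5 are nuclear, DUSP6 is cytoplasmic and prefers ERK, DUSP5 also prefers ERK, and DUSP1 acts mainly on p38 and JNK. Sprouty proteins act upstream, between receptor tyrosine kinases and ERK. ZFP36 (tristetraprolin), ZFP36L1 and ZFP36L2 are zinc finger proteins that bind AU-rich elements in 3′ untranslated regions (UTRs) and recruit deadenylases, and p38 signalling restrains ZFP36 through phosphorylation. Hydrogen peroxide is a known activator of these cascades.

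The promoters of DUSP1 and ZFP36, the members with the largest H2O2 responses in WT cells, are shown because their matches to stress and growth factor motifs differed. Both sequences come from RefSeq (GRCh38.p14) and run from 250 bases before to 50 bases after the annotated start, 5′ to 3′ on the gene's strand, with motif matches in capitals. The DUSP1 window is chr5:172771146-172771445 on the minus strand and the ZFP36 window is chr19:39406597-39406896 on the plus strand.
DUSP1: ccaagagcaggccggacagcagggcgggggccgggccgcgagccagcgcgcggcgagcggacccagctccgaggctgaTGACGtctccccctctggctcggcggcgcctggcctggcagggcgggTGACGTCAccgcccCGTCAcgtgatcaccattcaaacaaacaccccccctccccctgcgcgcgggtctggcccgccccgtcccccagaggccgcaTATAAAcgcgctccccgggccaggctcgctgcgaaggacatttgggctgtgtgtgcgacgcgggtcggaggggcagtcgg
ZFP36: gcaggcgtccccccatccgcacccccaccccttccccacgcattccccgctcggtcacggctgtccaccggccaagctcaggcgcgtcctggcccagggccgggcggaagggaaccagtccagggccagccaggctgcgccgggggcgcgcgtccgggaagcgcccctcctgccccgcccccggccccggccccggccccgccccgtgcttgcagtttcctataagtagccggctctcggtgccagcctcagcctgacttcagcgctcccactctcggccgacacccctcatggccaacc

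The motifs searched on both strands were the cyclic AMP response element (CRE) TGACGTCA, its shorter form TGACG, AP-1 (TGANTCA), EGR (GCGNGGGCG), ETS (CCGGAA) and the CArG box of serum response factor, and TATAAA on the gene's strand alone. The DUSP1 window held a full CRE 125 bases before the start, which 1.85% of 35116 RefSeq promoter windows held. It held 4 matches to the short form, at 172, 125, 122 and 111 bases before the start, of which those at 125 and 122 lie inside the full CRE. The short form was present in 24.6% of windows. A TATAAA lay 30 bases before the start, as in 7.33% of windows. The ZFP36 window had a GC content of 74.7%, close to the 73.3% of the DUSP1 window, and held 0 matches to the 7 motifs. AP-1, EGR, ETS and CArG matches were present in 7.71%, 9.43%, 17.2% and 1.29% of all windows. Windows were held for 7 of the 10 members, with 10 windows in all, and a full CRE was also present in 1 of the ZFP36L1 windows. A match is a string of letters, not a shown binding site.

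The AU-rich nonamer TTATTTATT, the core that ZFP36 proteins are known to bind, was sought in the longest annotated 3′ UTR of each gene (GENCODE 29, GRCh38). It was present in 7.98% of 19536 genes and in 5 of the 10 members, namely DUSP1, DUSP4, ZFP36, ZFP36L1 and ZFP36L2. Their UTRs differ in length, which bears on a chance match. They run from 672 bases in DUSP1 and 713 bases in ZFP36 to 3962 bases in DUSP4, against a median of 1041 bases over all genes. Sites outside DUSP4 are shown as DNA, 5′ to 3′ on the gene's strand, with the nonamer in capitals, because all members of the ZFP36 family and the phosphatase that moved most with H2O2 carry one.
DUSP1 at chr5:172768643-172768671, minus strand: gggctggtccTTATTTATTtaacttcacc
DUSP1 at chr5:172768375-172768403, minus strand: agaatataccTTATTTATTtttgtgtagg
ZFP36 at chr19:39409196-39409224, plus strand: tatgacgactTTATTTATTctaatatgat
ZFP36L1 at chr14:68788077-68788105, minus strand: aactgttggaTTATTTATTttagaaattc
ZFP36L2 at chr2:43223448-43223476, minus strand: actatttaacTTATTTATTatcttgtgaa
The 3′ UTRs of DUSP2, DUSP5, DUSP6, SPRY2 and SPRY4 had 0 nonamers.

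Library totals ranged from 36612997 to 51406431 counts. Each targeted mRNA was low in its own KD, with S100A16 at 7.11% of untreated WT, HNRNPM at 20.8% and MAGOHB at 34.8%. Other targets were lower too: MAGOHB was at 44.4% in the hnRNPM KD (adjusted p = 3.68e-06), S100A16 at 51.2% (adjusted p = 2.79e-07) and HNRNPM at 80.4% (adjusted p = 0.0458) in the MagoHB KD, and HNRNPM at 67.5% (adjusted p = 0.000911) and MAGOHB at 65% (adjusted p = 0.00122) in the untreated S100A16 KD. Their part in the results was not tested. Of 7 epithelial markers 4 were above 1 CPM in every library and CLDN7 was below 1 CPM in all. Among lung markers only ABCA3 exceeded 1 CPM, while NKX2-1, NAPSA and the 4 surfactant genes stayed below it. Summed leukocyte markers reached at most 1.72 CPM and endothelial ones 1.02 CPM. The 6 fibroblast markers summed to 25 to 63.4 CPM. The libraries MagoHB KD 2, hnRNPM KD 3 and S100A16 KD untreated 1 stood apart from their replicates (chi-square per degree of freedom from 13.4 to 28.7 in pairs that hold one of them, against 1.48 to 2.59 in other pairs), so results are also given without them, an alternative chosen after seeing the data. Scaling by total counts alone in place of TMM moved the median log2 change of all genes in the KD comparisons with untreated WT to 0.29 (S100A16 KD), 0.13 (hnRNPM KD) and 0.25 (MagoHB KD), against 0.06, 0.02 and 0.04. The share of calls that were higher then became 74%, 63.1% and 74.7%, against 52.7%, 51.6% and 51.1% with TMM.

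Per unit of transcript length DUSP1 was by far the most abundant of the 10 mRNAs. In untreated WT cells it stood at 47.4 ± 4.2 RPKM (SD, n = 3 here and for each mean below). ZFP36 followed with 5.46 ± 0.083 RPKM, ZFP36L1 with 5.38 ± 0.50, DUSP4 with 3.65 ± 0.25, SPRY2 with 2.79 ± 0.28, SPRY4 with 2.66 ± 0.11, ZFP36L2 with 2.24 ± 0.15, DUSP5 with 1.61 ± 0.065 and DUSP6 with 1.54 ± 0.21 RPKM. DUSP2 came last with 0.0358 ± 0.033 RPKM. The neighbours ZFP36 and ZFP36L1, SPRY2 and SPRY4, and DUSP5 and DUSP6 differed by less than the larger SD of the pair. DUSP1 was first and DUSP2 last in all 6 groups, whereas the order between them changed with the group.

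**Figure D1:**
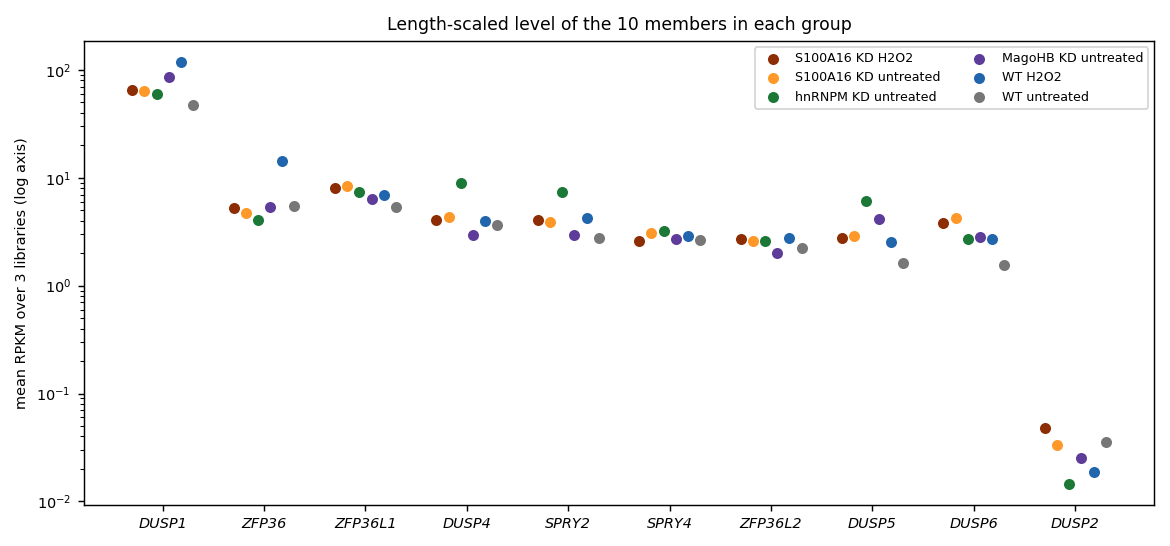
Mean RPKM over 3 libraries (log axis) of the 10 members in each of the 6 groups. DUSP1 lies above all others in every group, at 47.4 RPKM in untreated WT cells, and DUSP2 lies below all others, at 0.0358 RPKM.

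Beyond DUSP2, counting limits touch DUSP6. An annotated antisense gene overlaps DUSP6 exons on the opposite strand (DUSP6 lies at chromosome 12, 89347232 to 89353271, minus strand), and whether reads were counted by strand is not stated in the sources used here. Its counts were 231 to 772 per library, 70.4% to 82.5% of the DUSP6 count. Reads of the pair cannot be told apart, so each DUSP6 value below may include antisense reads. The exons of the other members overlapped 0 other features. DUSP5P1, a pseudogene related to DUSP5, had 0 to 12 counts per library.

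In WT cells the 2 h of H2O2 raised DUSP1 and ZFP36. DUSP1 stood at 273, 257 and 249 CPM in H2O2-treated WT cells, against 100, 116 and 97.4 CPM in untreated WT cells. In bulk RNA a change in some cells and a smaller change in all cells cannot be told apart. All 3 treated libraries lay above all 3 untreated ones, a 2.48-fold rise (log2 1.31 ± 0.16 SE, adjusted p = 0.000627 by edgeR's quasi-likelihood test with Benjamini-Hochberg adjustment over all genes, as for every adjusted p below unless another test is named). ZFP36, whose product destabilises AU-rich mRNAs, stood at 33.3, 32.9 and 28 CPM in H2O2-treated WT cells, against 12.3, 12 and 11.7 CPM in untreated WT cells. These groups did not overlap either, and the rise was 2.62-fold (log2 1.39 ± 0.12, adjusted p = 3.49e-07).

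Both calls, 2 of 9 tested members, stood beside 0.223% of all 22382 genes called in this comparison. DUSP6, the cytoplasmic ERK phosphatase, had 14.1, 12.6 and 14.1 CPM in treated WT cells, against 9.03, 6.95 and 7.47 CPM in untreated WT cells. The groups were separate, with a log2 difference of 0.80 ± 0.23 that did not pass (adjusted p = 0.365). SPRY2 had 13.2, 13.8 and 14.8 CPM in treated WT cells, against 9.67, 8.3 and 9.83 CPM in untreated WT cells. Its groups were separate too (log2 0.59 ± 0.15, adjusted p = 0.231). DUSP5 had a log2 difference of 0.63 ± 0.30 (adjusted p = 0.776), ZFP36L1 of 0.35 ± 0.19 (adjusted p = 0.807) and ZFP36L2 of 0.30 ± 0.11 (adjusted p = 0.576), each with all treated libraries above all untreated ones. DUSP4 and SPRY4 had log2 differences of 0.10 and 0.11, and their groups overlapped. How often the groups of all genes are separate was not counted in any comparison, so separation sets no member apart. DUSP2 had 0, 0 and 0.117 CPM in treated WT cells, against 0.137, 0.0909 and 0 CPM in untreated WT cells, too few counts for a test.

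The count of members called changed with the libraries in the fit. In a fit without the 3 libraries that stood apart, none of which belongs to this comparison, DUSP5 (log2 0.63, adjusted p = 0.000241), DUSP6 (0.80, adjusted p = 9.69e-09), ZFP36L1 (0.34, adjusted p = 3.36e-05) and SPRY2 (0.58, adjusted p = 1.4e-05) were called as well, 6 members higher and 0 lower, with 417 genes called in all. A fit to the compared groups alone also called 6 members, of 555 genes called. The log2 values themselves moved by less than their SE. The median log2 difference over the 9 members was 0.59, against -0.004 over all genes tested.

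**Figure D2:**
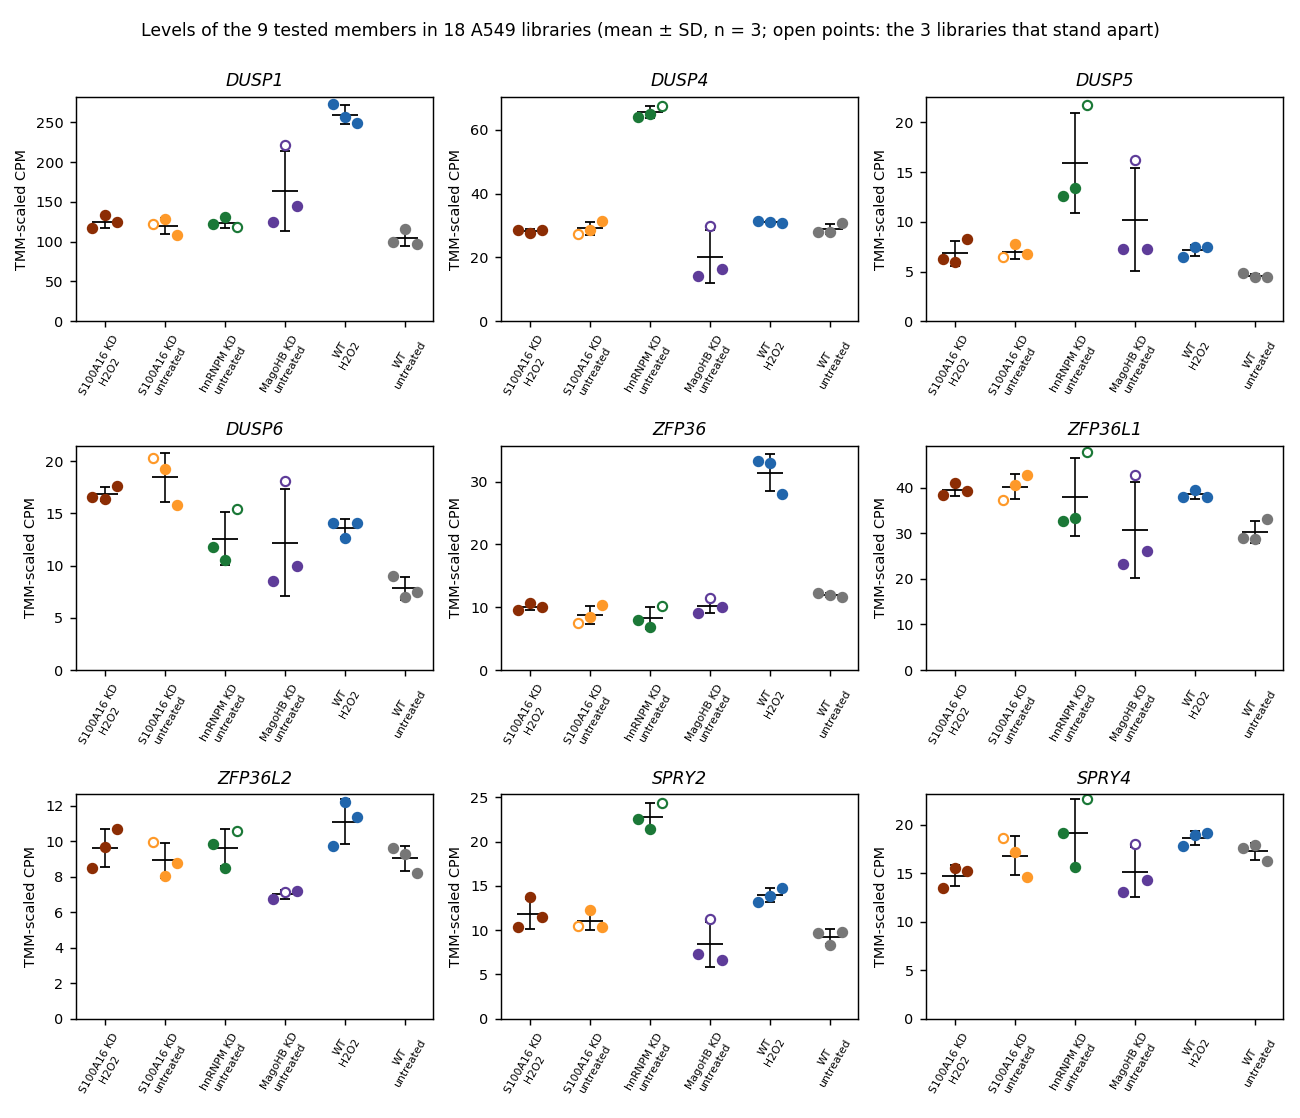
TMM-scaled CPM (linear axes from 0) of the 9 tested members in each of 18 libraries. Points are libraries, bars give the mean and SD of 3, and open points mark MagoHB KD 2, hnRNPM KD 3 and S100A16 KD untreated 1. ZFP36 is at 33.3, 32.9 and 28 CPM in the WT H2O2 group and at most 12.3 CPM in any other library, while DUSP4 and SPRY2 are highest in the hnRNPM KD.

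Other genes of the pathway were counted by role in the same comparison of H2O2-treated with untreated WT cells. Of 15 genes known as outputs of ERK signalling 5 rose and 0 fell. FOS, an AP-1 subunit, averaged 75.8 ± 5.4 CPM in treated WT cells and 7.19 ± 0.37 CPM in untreated WT cells (log2 3.40, adjusted p = 2.09e-08). EGR1, a zinc finger transcription factor, averaged 48.0 ± 4.9 CPM in treated WT cells and 1.64 ± 0.32 CPM in untreated WT cells (log2 4.87, adjusted p = 3.49e-07), and IER2 rose by a log2 of 1.31 (adjusted p = 8.58e-08). None of 16 genes of the ERK cascade, 18 of the JNK and p38 cascades, 5 other DUSP phosphatases, 5 other Sprouty and Spred genes, 12 other brakes, 10 transcription factors that drive early genes or 17 deadenylation genes was called by edgeR. At an unadjusted p under 0.05 these lists held 1, 1, 0, 0, 3, 2 and 2 genes in the same order. Of 10 other RNA-binding proteins linked to mRNA stability, not all of which bind AU-rich elements, only ZC3H12A, an endonuclease, was called (log2 0.82, adjusted p = 0.0044).

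Known mRNA targets of the ZFP36 family were also measured at this time point. Of 21 tested targets 4 rose and 0 fell. They were PTGS2 (the inducible cyclooxygenase; log2 0.77, adjusted p = 2.95e-06), IER3 (0.88, adjusted p = 0.000186), the chemokine CXCL2 (1.49, adjusted p = 0.0152) and LIF. The median log2 difference over the 21 was 0.37, against -0.004 over all genes. Of the targets IER3, CCND1 and MYC stand in the ERK output list as well, so counts of both lists share genes in every comparison.

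In S100A16 KD cells none of the 9 tested members was called after H2O2, where 0.0134% of all genes were. The count of all genes depended strongly on the fit. It was 801 with the compared groups alone and 364 without the 3 libraries that stood apart, and no member was called in either. DUSP1 stood at 117, 134 and 125 CPM in H2O2-treated KD cells, against 122, 128 and 108 CPM in untreated KD cells, and the groups overlapped (log2 0.07 ± 0.15, adjusted p = 0.98). ZFP36 stood at 9.55, 10.6 and 10 CPM in treated KD cells, against 7.56, 8.39 and 10.3 CPM in untreated KD cells, again with overlap (log2 0.20 ± 0.13, adjusted p = 0.812). DUSP6 stood at 16.6, 16.4 and 17.6 CPM in treated KD cells, against 20.3, 19.2 and 15.8 CPM in untreated KD cells (log2 -0.12 ± 0.22).

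The log2 differences of the 9 members in this comparison ran from -0.19 (SPRY4) to 0.20 (ZFP36). The groups of each overlapped, but how often the groups of all genes overlap was not counted, so overlap sets no member apart. By edgeR 0 members had an unadjusted p under 0.05, and DESeq2's Wald test called 0 as well. The median over the members was -0.03, against 0.01 over all genes. Of the ERK output genes 0 of 15 and of the ZFP36 targets 0 of 21 were called by edgeR in KD cells, with 2 and 1 at an unadjusted p under 0.05.

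**Figure D3:**
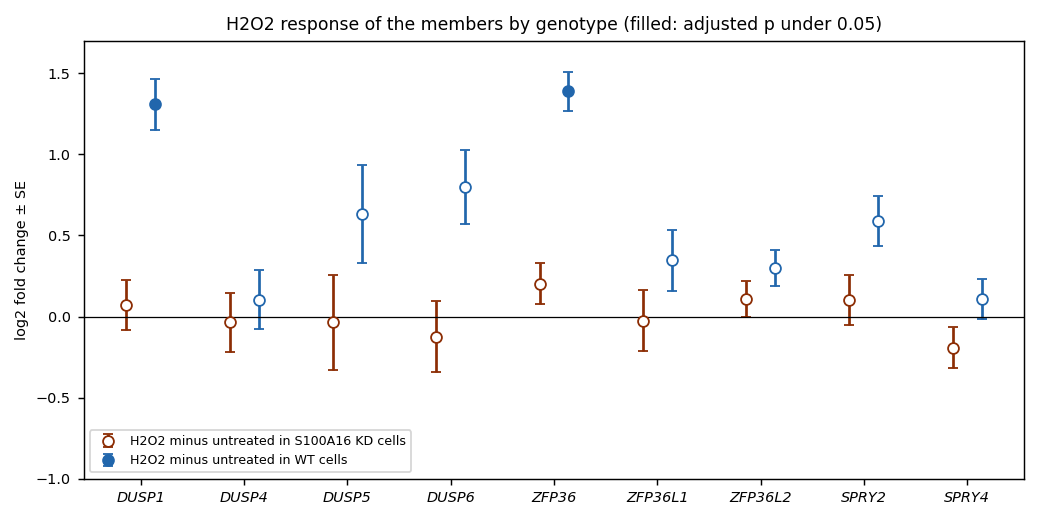
Log2 fold change (± SE) of H2O2-treated over untreated cells for the 9 tested members, in S100A16 KD cells (left of each pair) and WT cells (right), with filled points where the adjusted p was under 0.05. The WT points reach 1.31 for DUSP1 and 1.39 for ZFP36, and all KD points lie between -0.19 and 0.20.

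The difference between both H2O2 responses was tested directly as an interaction term. It passed for ZFP36, where the KD response minus the WT response was a log2 of -1.19 ± 0.18 (adjusted p = 0.0023), 1 of 9 members beside 0.0938% of all genes. For DUSP1 it was -1.24 ± 0.22 and missed the threshold (adjusted p = 0.0576). DUSP6 had -0.92 ± 0.32 (adjusted p = 0.798), DUSP5 -0.67 ± 0.42, SPRY2 -0.49 ± 0.21, ZFP36L1 -0.37 ± 0.27, SPRY4 -0.30 ± 0.17, ZFP36L2 -0.19 ± 0.16 and DUSP4 -0.14 ± 0.26, and none of these passed. All 9 values were below 0, with a median of -0.49 against 0.02 over all genes. How many of all genes lay below 0 was not counted, and the members were chosen with earlier results known.

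Leaving out any single library of the compared groups kept the ZFP36 interaction called, with log2 values from -1.28 to -1.05 and adjusted p from 0.00179 to 0.0164. For DUSP1 the adjusted p ranged from 0.0773 to 0.21 in those fits, whereas DUSP1 passed in a fit without MagoHB KD 2 (-1.24, adjusted p = 2.53e-07), without the 3 libraries that stood apart (-1.22, adjusted p = 0.0028) and by DESeq2's Wald test (-1.24, adjusted p = 1.3e-06). Without those 3 libraries, of which S100A16 KD untreated 1 belongs to this comparison, 6 members passed, adding DUSP5 (-0.72), DUSP6 (-0.84), ZFP36L1 (-0.42) and SPRY2 (-0.52), among 190 genes called. Among ERK outputs 4 of 15 had a lower response in KD cells, with FOS at -2.81 (adjusted p = 2.74e-05), EGR1 at -3.81 (adjusted p = 0.00137) and IER2 at -1.28 (adjusted p = 9.48e-05). Among ZFP36 targets 3 of 21 did, namely PTGS2 (-0.82), LIF (-0.44) and IER3 (-0.84).

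Under H2O2 the S100A16 KD had less DUSP1, ZFP36 and SPRY4 than WT. DUSP1 stood at 117, 134 and 125 CPM in treated KD cells, against 273, 257 and 249 CPM in treated WT cells, which is 0.483 of the WT level (log2 -1.05 ± 0.16, adjusted p = 4.7e-05). ZFP36 stood at 9.55, 10.6 and 10 CPM in treated KD cells, against 33.3, 32.9 and 28 CPM in treated WT cells, or 0.320 of the WT level (log2 -1.64 ± 0.12, adjusted p = 4.62e-10). Neither pair of groups overlapped. SPRY4, a Sprouty protein, stood at 13.5, 15.5 and 15.2 CPM in treated KD cells, against 17.8, 18.9 and 19.1 CPM in treated WT cells (log2 -0.34 ± 0.12, adjusted p = 0.0278). Its groups were separate, but the call was lost without WT H2O2 2 (adjusted p = 0.0602), WT H2O2 3 (adjusted p = 0.0638) or S100A16 KD H2O2 1 (-0.28, adjusted p = 0.112), and by total counts alone (-0.15, adjusted p = 0.366).

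These 3 members, all lower, stood among 52.5% of all genes called. DUSP6 was at 16.6, 16.4 and 17.6 CPM in treated KD cells, against 14.1, 12.6 and 14.1 CPM in treated WT cells, with separate groups and no call (log2 0.31 ± 0.22, adjusted p = 0.258). DUSP4, DUSP5, ZFP36L1, ZFP36L2 and SPRY2 had log2 differences from -0.23 to 0.04. ZFP36L2 was called without WT H2O2 1 (-0.31, adjusted p = 0.0393). Without the 3 libraries that stood apart 7 members were called, with DUSP6 higher and 6 lower, among 13258 genes called.

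Without H2O2 the S100A16 KD had more DUSP6 and less ZFP36 than WT. DUSP6 stood at 20.3, 19.2 and 15.8 CPM in untreated KD cells, against 9.03, 6.95 and 7.47 CPM in untreated WT cells, and the groups were separate. This was a 2.35-fold rise (log2 1.23 ± 0.23, adjusted p = 0.000327). The antisense gene had 614 to 772 counts in these KD libraries and 231 to 293 counts in untreated WT libraries. ZFP36 stood at 7.56, 8.39 and 10.3 CPM in untreated KD cells, against 12.3, 12 and 11.7 CPM in untreated WT cells. All KD libraries were lower (log2 -0.46 ± 0.13, adjusted p = 0.00429), a call lost when libraries were scaled by total counts alone (-0.22, adjusted p = 0.198).

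In all, 2 of 9 members were called, beside 52.3% of all genes. The count was 5 without the 3 libraries that stood apart, among 12541 genes called, and 6 without MagoHB KD 2 alone. DUSP5, ZFP36L1 and SPRY2 had log2 differences of 0.61 ± 0.30, 0.41 ± 0.19 and 0.26 ± 0.15, each with every KD library above every WT library and an adjusted p of 0.108, 0.0842 and 0.17. All 3 were called without the libraries that stood apart, at 0.64, 0.44 and 0.27. DUSP1 was at 122, 128 and 108 CPM in untreated KD cells, against 100, 116 and 97.4 CPM in untreated WT cells, with overlap (log2 0.19 ± 0.15, adjusted p = 0.329). DUSP4, ZFP36L2 and SPRY4 had log2 differences of 0.007, -0.02 and -0.04.

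Related genes in the untreated S100A16 KD stood beside 27.6% of all genes called higher and 24.8% called lower. SPRY1 averaged 12.0 ± 0.44 CPM in KD cells and 5.73 ± 0.56 CPM in WT cells (log2 1.06, adjusted p = 3.58e-08), and SPRED3 rose (1.21, adjusted p = 0.000521) while SPRED2 fell (-0.20, adjusted p = 0.0125). Among the 5 other DUSP phosphatases DUSP10 rose and DUSP7 and DUSP9 fell, all with means of at most 1.53 CPM in both groups. Of the 12 other brakes 3 rose and 6 fell, with ERRFI1, an inhibitor of the EGF receptor, at -0.63 (adjusted p = 2.66e-07), LRIG1, another receptor inhibitor, at 1.03 (adjusted p = 0.00016) and the RAS inhibitor NF1 at -0.39 (adjusted p = 0.000451). In the ERK cascade 4 of 16 rose and 8 fell, with the adaptor GRB2 at -0.65 and the exchange factor SOS1 at 0.57. In the JNK and p38 cascades 4 of 18 rose and 8 fell, with the p38 activators MAP2K3 at -1.27 and MAP2K6 at 1.61.

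The lists around mRNA decay are given beside the same 52.3% of all genes called. Of 17 deadenylation genes 4 rose and 7 fell in the untreated S100A16 KD, and CNOT9, a CCR4-NOT subunit, averaged 17 ± 0.79 CPM in KD cells and 41.8 ± 2.1 CPM in WT cells (log2 -1.30, adjusted p = 1.85e-12). Of the 10 other RNA-binding proteins 1 rose and 6 fell, with YBX1 at -1.12 (adjusted p = 9.35e-09). Of the 21 ZFP36 targets 14 rose and 3 fell, with a median log2 difference of 1.19 against 0.06 over all genes. CXCL2 rose (2.50, adjusted p = 4.08e-07), CCND1, which encodes cyclin D1, rose (0.62, adjusted p = 3e-07) and PIM3 fell (-1.05, adjusted p = 8.88e-07). Among ERK outputs 4 of 15 rose and 3 fell, and among driver transcription factors 1 of 10 rose (SRF, 0.72) and 5 fell.

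The hnRNPM KD had more DUSP4, DUSP5, DUSP6 and SPRY2 and less ZFP36 than untreated WT. DUSP4, a nuclear phosphatase, stood at 63.9, 65 and 67.5 CPM in hnRNPM KD cells, against 28, 28 and 30.8 CPM in untreated WT cells, a 2.26-fold rise with separate groups (log2 1.18 ± 0.18, adjusted p = 7.76e-05). SPRY2 stood at 22.6, 21.4 and 24.4 CPM in hnRNPM KD cells, against 9.67, 8.3 and 9.83 CPM in untreated WT cells, a 2.46-fold rise (log2 1.30 ± 0.15, adjusted p = 8.97e-07). DUSP5 stood at 12.6, 13.4 and 21.7 CPM in hnRNPM KD cells, against 4.83, 4.48 and 4.48 CPM in untreated WT cells. The highest value came from hnRNPM KD 3, and the rise was 3.46-fold with it (log2 1.79 ± 0.30, adjusted p = 0.000166) and a log2 of 1.49 without the 3 libraries that stood apart.

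ZFP36 stood at 7.92, 6.82 and 10.2 CPM in hnRNPM KD cells, against 12.3, 12 and 11.7 CPM in untreated WT cells, with every KD library lower (log2 -0.53 ± 0.13, adjusted p = 0.00158). DUSP6 stood at 11.8, 10.5 and 15.4 CPM in hnRNPM KD cells, against 9.03, 6.95 and 7.47 CPM in untreated WT cells (log2 0.69 ± 0.23, adjusted p = 0.0214). The DUSP6 call was lost without WT untreated 2 (0.61, adjusted p = 0.0794), WT untreated 3 (0.65, adjusted p = 0.0663) or hnRNPM KD 3 (0.52, adjusted p = 0.118), and with no filter beyond 1 count (0.68, adjusted p = 0.0658). In all, 5 of 9 members were called, beside 49.1% of all genes. DUSP1 stood at 122, 131 and 119 CPM in hnRNPM KD cells, against 100, 116 and 97.4 CPM in untreated WT cells, with separate groups and no call (log2 0.24 ± 0.15, adjusted p = 0.223). DUSP1 was called without MagoHB KD 2 (adjusted p = 0.0105) and with the compared groups alone (adjusted p = 0.0227). It was not called without the 3 libraries that stood apart (0.26, adjusted p = 0.0618). ZFP36L1, ZFP36L2 and SPRY4 had log2 differences of 0.33, 0.09 and 0.15 with overlapping groups. ZFP36L1 was called without MagoHB KD 2 (adjusted p = 0.0227).

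Related genes in the hnRNPM KD stood beside 25.4% of all genes called higher and 23.8% called lower. Of the 5 other DUSP phosphatases 3 rose and 0 fell. The 3 were DUSP8 (log2 2.44, adjusted p = 0.000427), DUSP10 (1.52, adjusted p = 0.00101) and DUSP7 (0.61, adjusted p = 0.0369), each averaging at most 2.35 CPM. The DUSP7 groups overlapped. SPRED2 rose (0.51, adjusted p = 9.43e-07), 1 of 5 other Sprouty and Spred genes. Of the 12 other brakes 5 rose and 4 fell, with RASA2, a RAS GTPase activator, at 17.7 ± 0.71 CPM in KD cells and 6.07 ± 0.28 CPM in WT cells (log2 1.54, adjusted p = 2.76e-12) and TRIB1 at 1.26 (adjusted p = 9.24e-09). In the ERK cascade 9 of 16 rose, while NRAS (-1.51) and MAPK3, which encodes ERK1 (-0.91), fell. Of the 15 ERK outputs 6 rose and 3 fell, with the EGF receptor ligand HBEGF at 3.31 (adjusted p = 5.42e-07) and FOSL1, an AP-1 subunit, at 108 ± 12 CPM in KD cells and 23.2 ± 1.4 CPM in WT cells (2.22, adjusted p = 8.59e-06).

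Of the 21 ZFP36 targets 12 rose and 4 fell in the hnRNPM KD, with a median log2 difference of 0.90 against 0.02 over all genes. The list counts here stand beside the same 25.4% of all genes called higher and 23.8% called lower. The cytokine IL11 averaged 21.5 ± 2.7 CPM in hnRNPM KD cells and 0.615 ± 0.20 CPM in untreated WT cells (log2 5.12, adjusted p = 1.41e-12). PLAU, which encodes urokinase, averaged 112 ± 7.3 CPM in hnRNPM KD cells and 25.9 ± 1.6 CPM in untreated WT cells (2.11, adjusted p = 2.5e-08), and PTGS2 fell (-0.87, adjusted p = 8.92e-09). Of 17 deadenylation genes 5 rose and 5 fell, with TOB1, an adaptor of the CCR4-NOT deadenylase, at -1.81 (adjusted p = 8.61e-11). Of the 10 other RNA-binding proteins 1 rose and 2 fell. The JNK and p38 list had 5 of 18 higher and 4 lower, and the driver list 5 of 10 higher and 3 lower, with the CRE-binding factor ATF1 at -1.63 (adjusted p = 5.17e-12).

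In the MagoHB KD the values of several members rested on MagoHB KD 2, a library that stood apart. DUSP1 stood at 125, 221 and 145 CPM in MagoHB KD cells, against 100, 116 and 97.4 CPM in untreated WT cells, all KD libraries being higher (log2 0.65 ± 0.15, adjusted p = 0.00328). DUSP5 stood at 7.23, 16.2 and 7.26 CPM in MagoHB KD cells, against 4.83, 4.48 and 4.48 CPM in untreated WT cells, again with separate groups (log2 1.17 ± 0.30, adjusted p = 0.0053). In both, MagoHB KD 2 was the highest library, and without the 3 libraries that stood apart the log2 differences were 0.37 for DUSP1 (adjusted p = 0.0142) and 0.66 for DUSP5 (adjusted p = 9.65e-06).

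DUSP4 stood at 14.3, 29.7 and 16.5 CPM in MagoHB KD cells, against 28, 28 and 30.8 CPM in untreated WT cells, with MagoHB KD 2 inside the WT range. The groups overlapped, and the fall passed (log2 -0.51 ± 0.18, adjusted p = 0.0337) but was lost without any of the 3 untreated WT libraries or without MagoHB KD 1 or 3 (adjusted p from 0.055 to 0.12). It was also lost by total counts alone (-0.29, adjusted p = 0.258), with the compared groups alone (adjusted p = 0.138) and with no filter beyond 1 count (adjusted p = 0.0902). Without the 3 libraries that stood apart it was -0.90 (adjusted p = 1.36e-16). DUSP6 stood at 8.54, 18.1 and 9.96 CPM in MagoHB KD cells, against 9.03, 6.95 and 7.47 CPM in untreated WT cells (log2 0.65 ± 0.23, adjusted p = 0.0307), a call lost without MagoHB KD 2 alone (0.24, adjusted p = 0.184), WT untreated 2 (0.56, adjusted p = 0.109) or WT untreated 3 (0.61, adjusted p = 0.0912). The DUSP6 call was also lost with the compared groups alone (adjusted p = 0.0929), with no filter beyond 1 count (adjusted p = 0.0813) and with the replicate number as a block in the fit (adjusted p = 0.0526). ZFP36L2 stood at 6.74, 7.13 and 7.18 CPM in MagoHB KD cells, against 9.62, 9.27 and 8.24 CPM in untreated WT cells. Its groups were separate and MagoHB KD 2 lay with its replicates (log2 -0.37 ± 0.11, adjusted p = 0.0114), although the call was lost by total counts alone (-0.15, adjusted p = 0.299).

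These 5 of 9 members stood beside 45.5% of all genes called. ZFP36 was at 9.06, 11.4 and 10.1 CPM in MagoHB KD cells, against 12.3, 12 and 11.7 CPM in untreated WT cells, with separate groups (log2 -0.24 ± 0.13, adjusted p = 0.129). SPRY2 had 7.28, 11.3 and 6.66 CPM in MagoHB KD cells, against 9.67, 8.3 and 9.83 CPM in untreated WT cells, and overlapped (log2 -0.13 ± 0.15, adjusted p = 0.529). Without the 3 libraries that stood apart all 9 tested members passed, with DUSP1, DUSP5 and DUSP6 higher and DUSP4, ZFP36, ZFP36L1, ZFP36L2, SPRY2 and SPRY4 lower, among 10120 genes called. Without WT untreated 2 or WT untreated 3 the count was 3. Without MagoHB KD 2 alone 7 passed, among them ZFP36 (-0.33, adjusted p = 0.0475), SPRY2 (-0.41, adjusted p = 0.00553) and SPRY4 (-0.33, adjusted p = 0.0242). ZFP36L1 was the only member whose sign in this comparison turned without the 3 libraries, with 0.03 in all libraries and -0.29 without them.

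**Figure D4:**
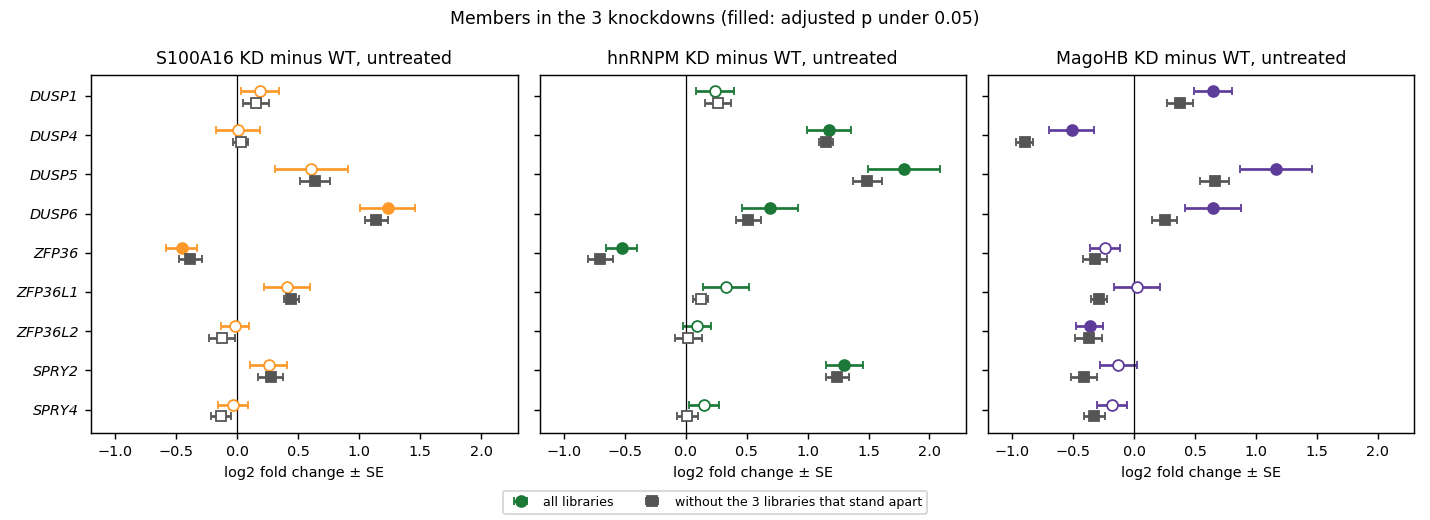
Log2 fold change (± SE) of each KD over untreated WT for the 9 tested members, with all libraries (circles) and without the 3 libraries that stood apart (grey squares), filled where the adjusted p was under 0.05. DUSP4 lies at 1.18 in the hnRNPM KD and at -0.51 in the MagoHB KD, where it moves to -0.90 without the 3 libraries.

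Related genes in the MagoHB KD stood beside 23.3% of all genes called higher and 22.3% called lower. All their values include MagoHB KD 2, which stood apart, and are not given without it. Of the 5 other DUSP phosphatases 3 were higher and 1 lower. The higher ones were DUSP16 at 0.56 (adjusted p = 0.000236), DUSP8 at 2.18 ± 0.51 (adjusted p = 0.00144) and DUSP10 at 1.06 (adjusted p = 0.0178). The DUSP10 groups overlapped. Of the other Sprouty and Spred genes 0 of 5 rose and 3 fell, all by small amounts (SPRED2 -0.26, SPRED1 -0.29, SPRY1 -0.32). Of the 12 other brakes 3 rose and 5 fell, with PTPRJ, a receptor phosphatase, at 49.8 ± 2.7 CPM in KD cells and 104 ± 2.2 CPM in WT cells (log2 -1.06, adjusted p = 1.35e-12) and ERRFI1 at -1.17 (adjusted p = 3.74e-11). The ERK cascade had 2 of 16 higher and 6 lower, with NRAS at -1.07, and the JNK and p38 cascades 3 of 18 higher and 6 lower, with MAP3K1 at 1.52. Of the ERK outputs 3 of 15 rose and 4 fell, with CCND1 at 0.99 (adjusted p = 4.27e-10) and PHLDA1 at -0.77 (adjusted p = 2.53e-08). Of the 21 ZFP36 targets 10 rose and 3 fell, with a median of 0.69 against 0.04 over all genes. The deadenylation list had 3 of 17 higher and 6 lower, with TOB1 at -1.62 (adjusted p = 5.43e-10). The other RNA-binding proteins had 1 of 10 higher and 3 lower, and the drivers 2 of 10 higher and 5 lower.

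The KDs were also compared with one another, since their comparisons with WT share the 3 untreated WT libraries. DUSP4 was 1.17 ± 0.18 log2 units lower in the untreated S100A16 KD than in the hnRNPM KD (adjusted p = 7.35e-05), DUSP5 1.19 ± 0.29 lower (adjusted p = 0.00319) and SPRY2 1.04 ± 0.15 lower (adjusted p = 9.66e-06), 3 of 9 members beside 48.8% of all genes. DUSP6 was 0.54 ± 0.22 higher in the S100A16 KD (adjusted p = 0.0536), which missed the threshold. It passed with the compared groups alone (adjusted p = 0.00704), without MagoHB KD 2 (adjusted p = 0.000434) and by DESeq2's Wald test (adjusted p = 0.0252). It also passed with halved counts (adjusted p = 0.0456) and by total counts alone (adjusted p = 0.0327). ZFP36, lower than WT in both KDs, differed between them by a log2 of 0.07 ± 0.13 with all libraries (adjusted p = 0.689). Without the 3 libraries that stood apart 6 members were called, among 11672 genes, adding ZFP36, which was then higher in the S100A16 KD (0.31, adjusted p = 0.0142), DUSP6 (0.63, adjusted p = 1.11e-06) and ZFP36L1 (0.32, adjusted p = 6.36e-05).

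Between the S100A16 and MagoHB KDs 5 of 9 members differed, beside 44.8% of all genes. DUSP4 (0.52), DUSP6 (0.58), ZFP36L2 (0.35) and SPRY2 (0.39) were higher and DUSP1 (-0.46) was lower in the S100A16 KD, with adjusted p from 0.0161 to 0.0473 and overlapping groups for all but ZFP36L2. Without MagoHB KD 2 the DUSP1 call was lost (-0.18, adjusted p = 0.0789), while DUSP4 moved to 0.91, DUSP6 to 0.99 and SPRY2 to 0.67. Without the 3 libraries that stood apart 4 members were called, namely DUSP4 (0.93), DUSP6 (0.89), ZFP36L1 (0.73) and SPRY2 (0.68), among 10999 genes, and neither DUSP1 (-0.22, adjusted p = 0.142) nor ZFP36L2 (0.25, adjusted p = 0.0885) was. With the compared groups alone 1 member, ZFP36L2, was called, among 8382 genes. The DUSP6 call was also lost with the replicate block (0.59, adjusted p = 0.0603), by total counts alone (adjusted p = 0.0537) and with no filter beyond 1 count (adjusted p = 0.13), and the SPRY2 call by total counts alone (adjusted p = 0.0611).

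Between the hnRNPM and MagoHB KDs 5 of 9 differed as well, beside 44.5%. DUSP4 was 1.69 ± 0.18 log2 units higher in the hnRNPM KD (adjusted p = 2.61e-06) and SPRY2 1.43 ± 0.15 higher (adjusted p = 2.56e-07), both with separate groups. ZFP36L2 (0.46) and SPRY4 (0.34) were higher and DUSP1 (-0.41) was lower in the hnRNPM KD. The DUSP1 difference was -0.13 without MagoHB KD 2 (adjusted p = 0.216) and -0.11 without the 3 libraries that stood apart (adjusted p = 0.483), and it was also not called without any 1 of the hnRNPM KD libraries. The SPRY4 call was lost without hnRNPM KD 1 or 3 or MagoHB KD 1 or 3 (adjusted p from 0.0622 to 0.191) and by total counts alone (0.24, adjusted p = 0.165), and without the 3 libraries it was 0.34 (adjusted p = 0.00236). Both counts moved with single libraries. Between the S100A16 and MagoHB KDs it was 1 without S100A16 KD untreated 1, 2 without S100A16 KD untreated 2, MagoHB KD 1 or MagoHB KD 3, 3 without S100A16 KD untreated 3 and 6 without MagoHB KD 2. Between the hnRNPM and MagoHB KDs it was 3 without hnRNPM KD 1, and 7 without MagoHB KD 2.

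The pattern over the 6 group means set the members apart from one another. It was compared on a log2 CPM scale with each profile centred on its own mean, as the root mean square difference over 6 groups. The group means hold all libraries, also those that stood apart, and no distance or nearest gene was computed without them. DUSP4 and SPRY2 were 0.17 apart and DUSP1 and ZFP36 0.36 apart, while DUSP5 and ZFP36 were farthest at 0.96. The group means of ZFP36L1, ZFP36L2 and SPRY4 spanned less than 1 log2 unit. ZFP36L1 and ZFP36L2 were 0.15 apart.

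For the other tested members the most similar profiles were sought among 10508 genes with a symbol and a mean of at least 5 CPM. The nearest genes to DUSP1 were IER3 (0.24), IER2 (0.25) and ADM (0.29), and to ZFP36 were IER2 (0.21), PTGS2 (0.29) and IER3 (0.30). IER2 averaged 35.2 ± 2.3 CPM in H2O2-treated WT cells and 11.2 to 14.5 CPM in the other 5 groups. The nearest genes to DUSP4 were PRKAG2 (0.10), SSFA2 (0.11) and MITF (0.12), and to SPRY2 were PRKAG2 (0.16), MITF (0.16) and MIDN (0.17). MITF, a transcription factor, averaged 31.3 ± 0.20 CPM in hnRNPM KD cells, 10.2 ± 1.3 CPM in MagoHB KD cells and 12.6 ± 0.84 CPM in untreated WT cells. The nearest genes to DUSP5 were TMEM8A (0.16), TXNDC11 (0.18) and TRIB1 (0.19), and to DUSP6 were UGCG (0.17), GHDC (0.19) and SLC27A2 (0.20).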

How the data were processed

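Poly(A) mRNA of 18 A549 libraries was sequenced. The authors deposited raw counts with each gene's coordinates and exon length, and a second table that holds RPKM. HISAT2 2.2.1 and StringTie 2.1.4 were used on GRCh38, per the submitters' processing notes. Not given in the sources used here are the counting program, its annotation and its use of strand. The deposited RPKM equalled counts divided by exon length and total counts for 100% of 531539 values within a relative tolerance of 0.001. RPKM was used only to compare levels between genes. Between 18.6% and 22% of counts from 1 to 19 were odd in each library, so mates of a pair were probably counted separately, and halved counts were an alternative.

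Libraries were grouped by the labels. Counts were fitted over all 18 libraries with 1 mean per group in edgeR 4.0.16 (R 4.3.3), using TMM scaling, filterByExpr and robust quasi-likelihood F tests. Benjamini-Hochberg adjustment ran over 22382 genes, with calls under 0.05, and CPM were scaled by TMM. The 10 comparisons were H2O2 against untreated in WT and in the S100A16 KD, the difference of those responses, the S100A16 KD against WT with and without H2O2, the hnRNPM and MagoHB KDs against WT, and the KDs against one another. Alternatives were DESeq2 1.42.0 (its size factors and its Wald test), total counts alone, no filter beyond 1 count, halved counts, a replicate block, the compared groups alone, each library left out, and the libraries that stood apart left out. The test was run on simulated data with changes only in the H2O2-treated WT group and no libraries that stood apart. That check therefore does not bear on how calls moved with such libraries.

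The members and gene lists were chosen with earlier results of these data known. From each list the text names at most 3 called genes with the smallest adjusted p per comparison. List counts and values of listed genes other than the members come from the fit to all libraries alone. DUSP2 failed the filter and was not tested. LIF was named as the remaining gene of a count of 4.

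Same-numbered libraries were not paired. Of 45 same-number pairs of groups 4 had deviations that correlated above 0.1 (median 0.02, range -0.53 to 0.62).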

Additional observations from a re-analysis of the deposited data

Results flagged for a closer look

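The response of ZFP36 to H2O2 differed between genotypes by a direct test. The response in S100A16 KD cells minus that in WT cells was a log2 of -1.19 (adjusted p = 0.0023 by edgeR's quasi-likelihood test). ZFP36 averaged 10.1 ± 0.52 CPM in H2O2-treated KD cells and 8.74 ± 1.4 CPM in untreated KD cells, and 31.4 ± 2.9 CPM in H2O2-treated WT cells and 12.0 ± 0.29 CPM in untreated WT cells (SD, n = 3 each).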

How the results depend on the processing

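Calls were checked with each library of the compared groups left out in turn. Those of DUSP1 and ZFP36 after H2O2 in WT cells held, as did ZFP36 in the interaction. DUSP1 and ZFP36 between treated KD and treated WT cells held too, and so did DUSP6 and ZFP36 in the untreated S100A16 KD. In the hnRNPM KD the calls of DUSP4, DUSP5, SPRY2 and ZFP36 held. So did DUSP1, DUSP5 and ZFP36L2 in the MagoHB KD, though DUSP1 fell to 0.368 and DUSP5 to 0.655 without MagoHB KD 2. DUSP4, DUSP5 and SPRY2 between the S100A16 and hnRNPM KDs also held, as did DUSP4, ZFP36L2 and SPRY2 between the hnRNPM and MagoHB KDs. A fit to the compared groups alone called 6 members after H2O2 in WT, 6 in the interaction, 5 in the untreated S100A16 KD, 7 in the treated S100A16 KD, 3 in the MagoHB KD, 1 between the S100A16 and MagoHB KDs and 3 between the hnRNPM and MagoHB KDs. All genes called were then 555 after H2O2 in WT, 801 after H2O2 in the S100A16 KD and 256 in the interaction. In the same fits they were 13198 and 13034 in the untreated and treated S100A16 KD and 8316 in the MagoHB KD. Between KDs the compared groups alone gave 8382 (S100A16 and MagoHB) and 6893 (hnRNPM and MagoHB). Without the 3 libraries that stood apart the members called were 6, 6, 5, 7 and 9 for H2O2 in WT, the interaction, the untreated and treated S100A16 KD and the MagoHB KD, then 6 between the S100A16 and hnRNPM KDs, 4 between the S100A16 and MagoHB KDs and 8 between the hnRNPM and MagoHB KDs. All genes called were 417 after H2O2 in WT, 364 after H2O2 in the S100A16 KD and 190 in the interaction. They were 12541 and 13258 in the untreated and treated S100A16 KD and 10120 in the MagoHB KD. Between KDs they were 11672 (S100A16 and hnRNPM), 10999 (S100A16 and MagoHB) and 10644 (hnRNPM and MagoHB). Without MagoHB KD 2 in comparisons it is not part of, members called were 4 (H2O2 in WT), 3 (interaction), 6 and 5 (untreated and treated S100A16 KD), and all genes called were 105, 11 and 42 for both H2O2 responses and the interaction. In the main fit 52.3% and 52.5% of all genes were called in the untreated and treated S100A16 KD. In the fit without MagoHB KD 2 the hnRNPM KD gained DUSP1 and ZFP36L1, and the comparison of the S100A16 and hnRNPM KDs gained DUSP6. The DESeq2 Wald test called 4 members after H2O2 in WT and 2 in the interaction, and 104, 75 and 38 genes for both H2O2 responses and the interaction. With no filter beyond 1 count 85, 25 and 45 genes were called there, with 3 members in the MagoHB KD and 2 between the S100A16 and MagoHB KDs. Total counts alone called 5 members in the untreated S100A16 KD, 3 in the MagoHB KD and 3 between them, beside 12438, 11009 and 9878 of all genes. Halved counts called 2 members in the interaction and added DUSP6 between the S100A16 and hnRNPM KDs. The replicate block called 2 members in the interaction, adding DUSP1 (-1.25, adjusted p = 0.00427), and lost DUSP6 in the MagoHB KD (adjusted p = 0.0526) and between the S100A16 and MagoHB KDs (adjusted p = 0.0603); it changed no other call of a member. The cause of these moves was not tested.

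The ranges here come from leaving out 1 library of the compared groups at a time. Members called ranged from 3 to 7 in the MagoHB KD, beside 8912 to 10387 of all genes. Between the S100A16 and MagoHB KDs they ranged from 1 to 6, beside 8785 to 10613 genes. Between the hnRNPM and MagoHB KDs they ranged from 3 to 7, beside 8793 to 10318 genes. All genes called ranged from 3 to 7 after H2O2 in the S100A16 KD and from 13 to 17 in the interaction. Signs turned only where the main value was not called. By total counts alone these were ZFP36L2 (0.217) and SPRY4 (0.2) in the untreated S100A16 KD, DUSP4 (0.052) and DUSP5 (0.125) in the treated KD, SPRY2 (0.087) and SPRY4 (0.030) in the MagoHB KD, DUSP1 (0.073) and ZFP36L2 (0.007) between the S100A16 and hnRNPM KDs, and DUSP6 (-0.062) between the hnRNPM and MagoHB KDs. DUSP4 in the untreated S100A16 KD was at -0.013 with DESeq2 size factors and its Wald test, -0.017 with no filter and -0.011 in the compared groups alone. ZFP36L1 in the MagoHB KD was at -0.289 without the 3 libraries. Some log2 values crossed 0 with 1 library of the compared groups left out. After H2O2 in the S100A16 KD they did for DUSP4 (-0.075 to 0.029), DUSP5 (-0.186 to 0.054), ZFP36L1 (-0.077 to 0.026) and SPRY2 (-0.016 to 0.194). In the untreated KD they did for DUSP4 (-0.072 to 0.045), ZFP36L2 (-0.107 to 0.048) and SPRY4 (-0.117 to 0.034), and in the treated KD for DUSP5 (-0.229 to 0.028). They also did for ZFP36L1 (-0.296 to 0.184) and SPRY2 (-0.413 to 0.011) in the MagoHB KD, DUSP1 (-0.104 to 0.003), ZFP36 (-0.077 to 0.242) and ZFP36L1 (-0.026 to 0.282) between the S100A16 and hnRNPM KDs, and DUSP6 (-0.154 to 0.446) between the hnRNPM and MagoHB KDs.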
